A study of Mus musculus with 6 samples.

Results

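Effector genes of red cells and platelets were followed in B-lineage progenitors that lacked Ebf1 and in the same kind of cells given Ebf1 back. The 9 genes are Alas2, Epor, Hbb-b1, Hba-a1, Car1, Car2, Tfrc, Rhd and Pf4. They were chosen by name: every array probe annotated with 1 of these 9 names was taken. This gave 12 probes (21 spots on each array) of 41174, and 9 of 27827 names on the array. Of these genes, 5 (8 probes) could be tested. The other 4 (Hba-a1, Car1, Car2 and Pf4) were too dim.

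All cells were mouse pre-pro-B cells with the genotype given as Ebf -/-, so both groups share the Ebf1 deficiency. The culture medium held Flt3 ligand, interleukin 7 and stem cell factor, each at 10 ng/ml, over a feeder layer of OP9 stroma. The 3 control samples received the retrovirus pMYs-IRES-EGFP, which carries only the green fluorescent reporter. The 3 Ebf1 samples received pMYs-Ebf1beta-IRES-EGFP. Cells were sorted for the reporter 24 h after infection, so every measurement comes from an early time. In the Ebf1 samples, Ebf1 was driven by the virus and not by its own promoter. Total RNA was primed with oligo-dT, labelled with Cy3 and hybridised to 1-colour Agilent arrays. The labels give neither the age nor the number of mice. They do not say that replicates came from separate cultures, so p-values measure the spread between these samples, which may be technical.

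Red cells are built around hemoglobin, a tetramer of alpha and beta globin chains that each hold a heme group. Erythroid precursors import iron through the transferrin receptor, make heme with an erythroid form of 5-aminolevulinate synthase, and depend on the erythropoietin receptor for survival. These genes are known targets of GATA1 and KLF1 in erythroid cells. Pf4, in contrast, encodes a chemokine stored in platelet granules and is made by megakaryocytes. Early hematopoietic progenitors can hold low levels of such transcripts, and Ebf1 is a transcription factor that directs progenitors into the B lineage.

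Levels below are log2 signals relative to the 75th percentile of the same array, and changes are Ebf1 virus minus control virus on that scale. A probe was tested when the scanner software marked it as well above background on all 3 arrays of at least 1 group. A probe was called when limma's moderated test gave a Benjamini-Hochberg adjusted p, over 20455 tested probes, below 0.05. Signals of different probes are not on a common scale, so the level of a gene is compared between arrays. Sums over marker lists add linear signals of different probes, so bright probes weigh most in them.

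The 75th percentile lay at signals of 240 to 366 in control samples and 316 to 364 in Ebf1 samples. The share of probes well above background was 46.3% to 50.2% and 50.4% to 59.8%. The B-lineage marker list (7 genes) had a summed linear level, relative to the 75th percentile, of 1.61 to 1.82 in control samples and 530 to 587 in Ebf1 samples. Ebf1's own probe had a mean of 0.44 in control and 0.29 in Ebf1 samples (change -0.15 ± 0.21 SE, adjusted p = 0.646). The sources used here do not say whether that probe lies inside the part missing from the mutant allele or carried by the virus, so it checks no label. All 9 lymphoid progenitor markers were above background on every array, with 2 called higher and 4 lower (median -0.6). In bulk samples such as these, fewer cells of a type and less RNA per cell cannot be told apart.

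The adult beta globin gene Hbb-b1 fell with Ebf1. Of its 4 probes, 3 were called lower, by 2.4-fold to 3.57-fold. The alpha globin gene Hba-a1 was dim throughout. Alas2, the erythroid enzyme of the first step of heme synthesis, went the other way and was at least 2.5-fold higher with Ebf1. Tfrc, the transferrin receptor, was 1.46-fold lower, a call that most other settings did not keep. Epor and Rhd were measured but not called. Of all tested probes, 11.5% were called higher and 10.2% lower (21.7% in all), beside 1 higher and 4 lower of the 8 tested member probes. By gene, 1 was higher and 2 lower of 5. The median change was -0.77 over the 8 probes, 4 of which belong to Hbb-b1 (2 of them overlapping), and -0.06 over all tested probes. With 1 probe per gene it was the Epor value, 0.28. Values of the 2 groups did not overlap at 6 of the 8 tested member probes, beside 42.6% of all tested probes.

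**Figure D1:**
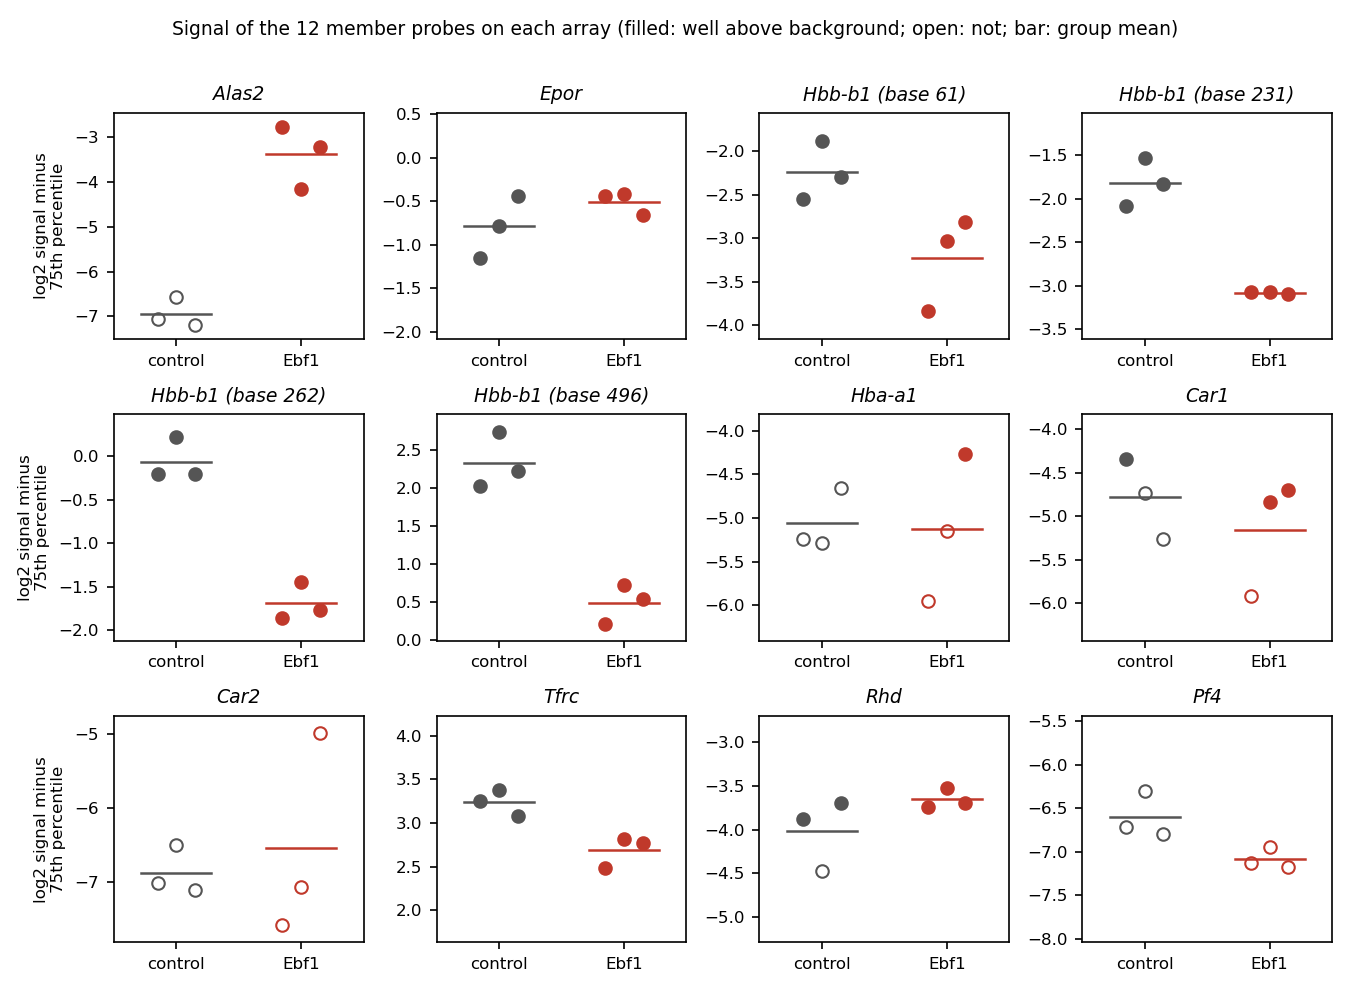
Level of each of the 12 probes on the 6 arrays, as log2 signal minus the array's 75th percentile, with 3 control and 3 Ebf1 arrays in each panel and a bar at the group mean. Filled points are well above background and open points are not. The Alas2 points are open in all 3 control arrays and filled in all 3 Ebf1 arrays, and the Hbb-b1 panels all step down from control to Ebf1.

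Hbb-b1 was read by 4 probes on the minus strand of chromosome 7 (mm9), which carries the adult beta globin genes. Current RefSeq names its accession Hbb-bt. The sequences of 3 of the probes are shown because they say which readings are separate. The probe that starts at base 61 of the transcript also lists the accession of the paralog Hbb-b2. The probes at bases 231 and 262 list Hbb-b1 only, and overlap in the 29 bases in capitals.
Hbb-b1 base 61: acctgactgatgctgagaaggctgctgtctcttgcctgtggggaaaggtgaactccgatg
Hbb-b1 base 231: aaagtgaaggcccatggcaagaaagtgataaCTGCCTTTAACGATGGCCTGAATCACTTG
Hbb-b1 base 262: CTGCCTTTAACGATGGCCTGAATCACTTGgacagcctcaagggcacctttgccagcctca

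The overlap means that the probes at bases 231 and 262 are not independent readings. The fourth probe starts at base 496 (chr7:110961112-110961171) and again lists both paralogs, so the 2 adult genes cannot be separated there. All 4 probes were well above background on all 6 arrays.

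At base 496, control samples 1 to 3 had levels of 2.03, 2.74 and 2.22, and Ebf1 samples 1 to 3 had 0.22, 0.72 and 0.54. Every control value lay above every Ebf1 value, by more than the range within either group. The means were 2.33 ± 0.37 (SD, n = 3) and 0.49 ± 0.25 (SD, n = 3), which is 3.57-fold lower with Ebf1 (change -1.84 ± 0.23 SE, adjusted p = 0.0011, limma, 95% interval -2.36 to -1.31).

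At base 262 (chr7:110962000-110962059), levels were -0.21, 0.22 and -0.20 in control and -1.86, -1.44 and -1.77 in Ebf1 samples. The groups again lay apart, and the change was -1.63 ± 0.19 SE (3.09-fold lower, adjusted p = 0.00077, limma). At base 231 (chr7:110962031-110962090), levels were -2.09, -1.53 and -1.83 in control samples against -3.07, -3.07 and -3.10 in Ebf1 samples. Here the Ebf1 values were nearly equal, with an SD of 0.02. The change was -1.26 ± 0.17 SE (2.4-fold lower, adjusted p = 0.0019, limma).

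At base 61 (chr7:110962317-110962376), levels were -2.55, -1.88 and -2.30 in control and -3.84, -3.03 and -2.82 in Ebf1 samples. The groups did not overlap, but the Ebf1 samples were widely spread (SD 0.54). The change was -0.98 ± 0.29 SE, and its adjusted p of 0.0509 (limma) missed the threshold. This probe was called in 7 of 17 alternative settings.

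The size of the fall depended on how background was handled. With the normexp correction the changes at bases 61, 231, 262 and 496 were -0.38, -0.64, -1.09 and -1.59. Slide 1 was the only slide with both groups, 1 array of each, so with slide as a fixed block the change is the difference of those 2 arrays and its error comes from the other slides. There Ebf1 replicate 1 lay below control replicate 2 by more than in the whole comparison, with changes of -1.95, -1.54, -2.08 and -2.52. The 3 called probes were called in 17 of 17 alternatives.

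A list of markers of another lineage was lower in sum, through 2 of its genes. The macrophage and granulocyte list (12 genes) had a summed linear level of 13.7 to 20.8 in control and 8.03 to 9.77 in Ebf1 samples. Nearly all of that sum was Adgre1 (change -0.86) and Mpo (-1.77), both called lower. Of the 4 tested genes, Csf1r (1.69) was called higher and Lyz2 (0.38) was not called. The other 8 could not be tested, and Ctsg, S100a8 and S100a9 were above background on no array. Among the lymphoid progenitor markers, Kit (change -1.82), Il7r (-1.69), Spn (-1.60) and Cd93 (-1.01) were called lower, and Ly6d (2.62) and Rag1 (0.86) higher. The summed level of the 9 was 105 to 130 in control and 221 to 243 in Ebf1 samples. Most of the Ebf1 sum was Ly6d alone, with levels of 4.52, 5.18 and 4.87 in control and 7.54, 7.53 and 7.38 in Ebf1 samples. The rise of the sum is therefore not a rise of the list. The part of either list in the fall of Hbb-b1 was not tested. The red cell membrane genes Rhag, Kel and Epb42 and the transcription factor Gata1 were above background on no array of either group. Other genes of the same lists, Slc4a1, Dmtn, Klf1 and Gata2, were above background on all 3 Ebf1 arrays and were called higher. They were dim, with Dmtn above background on 1 control array (adjusted p = 0.0393, limma) and the others on none. Brighter genes of these lists went both ways. Gypc, Lmo2, Nfe2 and Zfpm1 were called higher, and Slc14a1, Tal1, Gfi1b, Sox6, Mef2c and Lyl1 lower (changes -2.25 to -0.98). The mast cell and basophil list (10 genes, 6 never above background) summed to 0.348 to 0.537 in control and 0.38 to 0.455 in Ebf1 samples. The overlap of these sums hides opposite calls among its 3 tested genes. Cpa3 was called lower (change -1.90, adjusted p = 0.00756, limma) and Hdc higher (1.08, adjusted p = 0.0049), and Il1rl1 (0.48) was not called. The part of this list in the fall of Hbb-b1 was not tested.

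Hba-a1, an adult alpha globin gene, was read by 1 probe that spans a splice junction (chr11:32183775-32183956, plus strand) and also lists the accession of Hba-a2. Its levels were -5.24, -5.29 and -4.66 in control and -5.95, -5.15 and -4.27 in Ebf1 samples. It was well above background only in Ebf1 replicate 3, so it was not tested and its 2 groups overlap. Alpha globin therefore gave no measured counterpart to the beta globin fall. On the array were 7 other genes of the globin and chaperone list. These, among them Hba-a2, the embryonic Hbb-y and Hbb-bh1 and the alpha globin chaperone Ahsp, could not be tested either, and Ahsp and Hba-x were never above background.

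Alas2 encodes the erythroid form of 5-aminolevulinate synthase. Its single probe lies on chromosome X (chrX:147004993-147005052, plus strand, mm9). The sequence is shown because it holds the end of the coding region, with the stop triplet in capitals.
Alas2: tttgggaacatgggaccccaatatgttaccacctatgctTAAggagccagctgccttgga

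In control samples the Alas2 probe gave -7.06, -6.57 and -7.19 and was above background on none of the 3 arrays. In Ebf1 samples it gave -2.77, -4.16 and -3.21 and was above background on all 3. Linear signals were 2.73, 2.52 and 1.79 in control against 53.3, 19.4 and 34.2 in Ebf1 samples, so the groups lay far apart although the Ebf1 values were themselves spread.

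Because the control value is only a bound, the difference is given as at least 2.5-fold higher. This sets the Ebf1 mean against the dimmest signal that each control array could still tell from background. The adjusted p was 0.000337 (limma, n = 3 per group, measured means -6.94 ± 0.33 and -3.38 ± 0.71 SD). The fitted change of 3.56 ± 0.35 SE is not a size, and with normexp it was 0.56 (adjusted p = 0.0361). The within-slide difference, of 1 array against 1, was 3.8. The probe was called higher in all 16 alternatives in which it could be tested. The OP9 stroma list (17 genes) had a summed level of 42.2 to 44 in control and 49.2 to 60.4 in Ebf1 samples. Of its 13 tested genes 3 were called higher (23.1%) and 0 lower, beside 12.6% higher and 11% lower over all genes. Their median change was 0.57, beside -0.06 over all genes, and changes ran from -0.02 (Acta2) to 1.07 (Fn1). Acta2 was the largest term of the sum, so the sum moved less than most of the list. Dcn, Lum and Postn were above background on no array. Its part in the Alas2 result was not tested.

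The housekeeping counterpart Alas1 was above background throughout and not called (change 0.32 ± 0.14 SE, adjusted p = 0.145). Of 18 other genes of heme synthesis and handling, all tested, 1 was called higher and 4 lower, with a median change of -0.11. The count lower was 2 without control replicate 2, control replicate 3, Ebf1 replicate 1 or Ebf1 replicate 2, and 1 with no filter or slide as a fixed block. Over 13837 genes, 12.6% were called higher and 11% lower, with a median of -0.06. Abcb10, a mitochondrial transporter of erythroid cells, fell from levels of -0.67, -0.65 and -0.59 to -1.38, -1.66 and -1.82 (change -0.98 ± 0.16 SE, adjusted p = 0.00408, limma). Cpox, which makes protoporphyrinogen, fell by 0.81 on the log2 scale (adjusted p = 0.0106). Blvrb, a biliverdin reductase, rose by 0.70 (adjusted p = 0.0156), a call lost in 6 of 17 alternatives, among them without control replicate 3 (adjusted p = 0.065) or Ebf1 replicate 3 (0.0516). Abcb10 and Cpox lost their calls with slide as a fixed block (changes -0.73 and -0.75, adjusted p = 0.13 and 0.171), and Cpox also with no filter on dim probes.

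**Figure D2:**
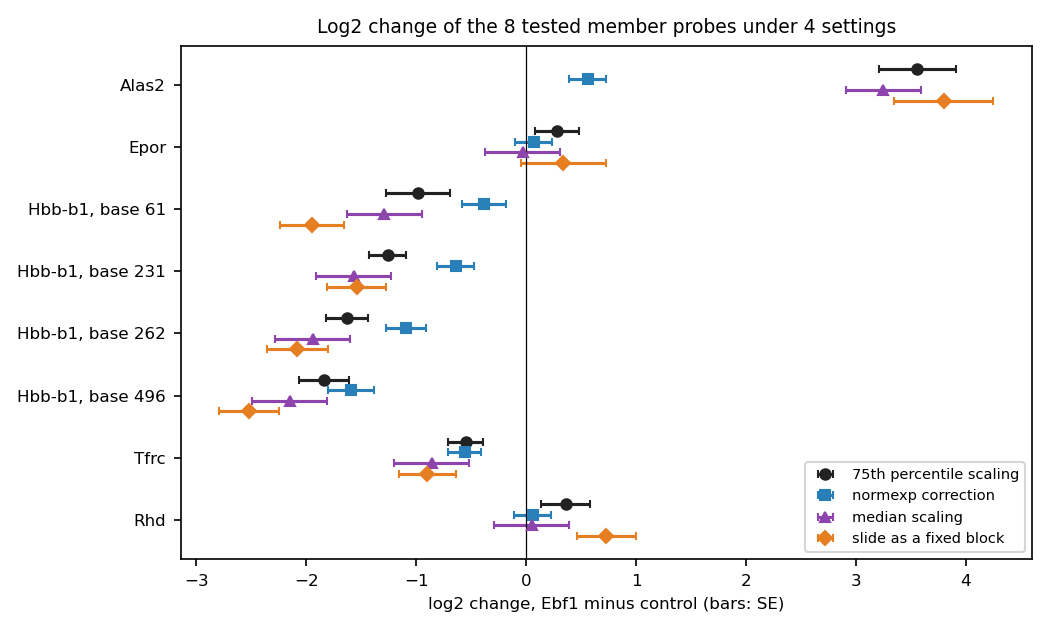
Log2 change (Ebf1 minus control) of the 8 tested probes with bars of 1 SE, under 75th percentile scaling, the normexp correction, median scaling and slide as a fixed block. The Hbb-b1 and Tfrc changes lie below 0 in all 4 settings and Alas2 above 0, with the Alas2 value shrinking from 3.56 to 0.56 under normexp, while Epor crosses 0 under median scaling.

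Among the receptors, Tfrc and Epor were both above background on all 6 arrays. Tfrc imports transferrin-bound iron and is also present on other dividing cells. Its probe (chr16:32632255-32632314, plus strand) lies on 10 spots of each array, which makes it the most repeated reading among the 12. Array means were 3.25, 3.38 and 3.08 in control and 2.48, 2.82 and 2.77 in Ebf1 samples. The lowest control array lay above the highest Ebf1 array. The 10 spots of an array had an SD of 0.05 to 0.11, which is the spread of spots within an array and not between samples.

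The group means of Tfrc were 3.24 ± 0.15 and 2.69 ± 0.18 (SD, n = 3 each). The change of -0.55 ± 0.16 SE is 1.46-fold lower, with an adjusted p of 0.0463 (limma, 95% interval -0.92 to -0.18). The direction was the same in 17 of 17 alternatives but the call remained in 6. Among those 6 were the series table as input, outlier spots kept and slide as a random block, which repeat or nearly repeat the main fit. It was lost on leaving out any 1 of the 6 arrays (change -0.63 to -0.45, adjusted p 0.0739 to 0.163), with quantile normalization (adjusted p = 0.0848), median scaling (-0.86, adjusted p = 0.0568) or no filter on dim probes (adjusted p = 0.196), and with slide as a fixed block (-0.9, adjusted p = 0.0791).

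**Figure D3:**
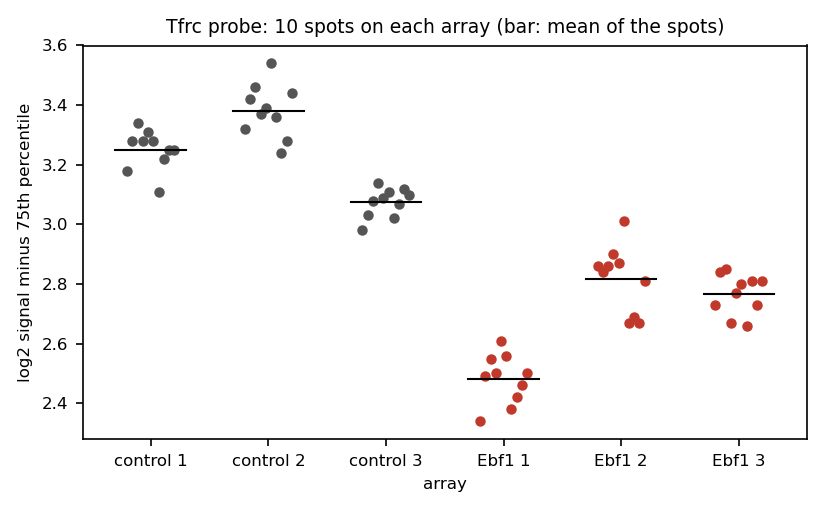
Level of the Tfrc probe at each of its spots on the 6 arrays, as log2 signal minus the array's 75th percentile, with a bar at the array's mean. Spots run from 2.98 to 3.54 on the control arrays and from 2.34 to 3.01 on the Ebf1 arrays, and the 3 Ebf1 means all lie below the 3 control means.

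Epor encodes the erythropoietin receptor (chr9:21763422-21763481, minus strand). It had levels of -1.15, -0.78 and -0.44 in control and -0.44, -0.42 and -0.66 in Ebf1 samples. The ranges overlapped, with control replicate 3 inside the range of the Ebf1 samples. The change of 0.28 ± 0.20 SE was not called (adjusted p = 0.356, limma), and its 95% interval of -0.19 to 0.76 leaves room for a change in either direction. It was called in 0 of 17 alternatives, and its sign turned with median scaling (-0.03).

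Downstream of the receptor, 17 of 21 listed signalling genes were tested. Of them, 4 were called higher (23.5%) and 3 lower (17.6%), with a median of 0.09, beside 12.6% higher and 11% lower over all genes. The count higher was 2 with median scaling. The count lower was 0 without control replicate 2, with no filter or with slide as a fixed block, and 1 without Ebf1 replicate 2 or with the replicate number as a block. Stat5a, a transcription factor activated by the receptor and by other cytokine receptors, rose from 1.80, 1.47 and 1.56 to 3.85, 2.87 and 3.12 (change 1.66 ± 0.26 SE, adjusted p = 0.00348, limma). Sh2b3, an adaptor that dampens cytokine signalling, rose by 1.35 (adjusted p = 0.00383) and Cish, a feedback inhibitor induced by Stat5, by 0.75 (adjusted p = 0.00857). With slide as a fixed block the changes of Sh2b3 and Cish were 1.33 and 0.84 with larger SEs, and neither was called (adjusted p = 0.0851 and 0.0887). Cish was not called with median scaling (0.44 ± 0.34 SE, adjusted p = 0.353), where the SE does not reflect its own spread, or with no filter on dim probes.

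Of 20 other iron genes, 17 were tested, with 4 called higher (23.5%), 1 lower (5.88%) and a median of 0.26, beside 12.6% higher and 11% lower over all genes. The count higher was 1 with median scaling or slide as a fixed block, and 2 with normexp, with no filter or with signal required on all 6 arrays. The count lower was 0 without control replicate 2. Tfr2, another transferrin receptor found on erythroid precursors and in liver, had levels of -7.02, -6.51 and -7.11 in control and -1.94, -2.76 and -2.42 in Ebf1 samples. It was above background on no control array and on every Ebf1 array, at least 5.02-fold higher (adjusted p = 2.21e-05, limma). With normexp the Tfr2 change was 1.08 and still called. Tfr2 was higher in the samples in which Tfrc was lower. Fth1, the ferritin heavy chain, rose by 0.82 (adjusted p = 0.00435) and Steap3, a ferrireductase, by 0.74 (adjusted p = 0.00617). Fth1 was not called with median scaling (0.52, adjusted p = 0.275) or slide as a fixed block, and Steap3 was lost in 4 of 17 alternatives, normexp among them (0.31).

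Rhd encodes the blood group D protein of the red cell membrane (chr4:134452018-134452077, plus strand). Its levels were -3.88, -4.47 and -3.69 in control and -3.74, -3.52 and -3.70 in Ebf1 samples. Control replicate 2 was the lowest and the only array on which the probe was not above background. The change was 0.36 ± 0.22 SE (adjusted p = 0.277, 95% interval -0.15 to 0.86, limma), and it was called in 0 of 16 alternatives.

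Among 24 other red cell membrane and blood group genes on the array, 13 were tested, 3 were called higher and 1 lower, and 7 were above background on no array. The shares called were 23.1% and 7.69%, beside 12.6% higher and 11% lower over all genes, and the median of the tested genes was 0.15. The count higher was 1 without control replicate 1, Ebf1 replicate 2 or Ebf1 replicate 3, and also with normexp, with quantile normalization, with no filter and with signal required on all 6 arrays. Slc14a1, the urea transporter that carries the Kidd antigen, fell from 3.43, 3.08 and 3.37 to 0.92, 0.89 and 1.33 (change -2.25 ± 0.18 SE, adjusted p = 0.000124, limma). Gypc, glycophorin C, rose from 1.33, 1.00 and 0.89 to 2.28, 2.36 and 2.27 (change 1.23 ± 0.16 SE, adjusted p = 0.00148). Both were called in 17 of 17 alternatives. Slc4a1, the anion exchanger known as band 3, was at least 1.38-fold higher (adjusted p = 0.0208), with no call in 8 of 16 alternatives, among them normexp (0.25) and slide as a fixed block. Its call was also lost without control replicate 1, control replicate 2, Ebf1 replicate 2 or Ebf1 replicate 3 (adjusted p 0.0639 to 0.0706).

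Car1 and Car2 encode cytosolic carbonic anhydrases, which hydrate carbon dioxide in red cells. Both lie on chromosome 3. Car1 (chr3:14767486-14767545, minus strand) gave -4.34, -4.73 and -5.26 in control and -5.92, -4.84 and -4.70 in Ebf1 samples, and was above background on 1 control and 2 Ebf1 arrays. The groups overlapped in part, with the lowest value in Ebf1 replicate 1 and the highest in control replicate 1. Car2 (chr3:14900206-14900265, plus strand) gave -7.02, -6.51 and -7.11 against -7.59, -7.07 and -4.99, and was above background on no array, so these values carry no order.

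Other carbonic anhydrases were measured where Car1 and Car2 were not. Of 14 on the array, 8 were tested, with 2 called higher (25%), 1 lower (12.5%) and a median of 0.41, beside 12.6% higher and 11% lower over all genes. The count higher was 1 with normexp and 0 with signal required on all 6 arrays. Car3, a cytosolic form best known from muscle and fat, went from -5.77, -4.84 and -5.48 to -0.39, -0.80 and -0.65, at least 17-fold higher (adjusted p = 1.54e-05, limma). It was above background on no control array and on all Ebf1 arrays, and with normexp its change was 1.86 and called. Car6, a secreted form, was at least 2.09-fold higher (adjusted p = 0.000148) but not called with normexp (0.34). Car12, a membrane form, fell by 1.11 (adjusted p = 0.00161) and was called in 17 of 17 alternatives.

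Pf4, platelet factor 4, was above background on no array (chr5:91202275-91202334, plus strand). Its values were -6.71, -6.30 and -6.80 in control and -7.13, -6.95 and -7.18 in Ebf1 samples. They did not overlap, but at this signal they give no level and no fold. Of 24 other platelet and megakaryocyte genes on the array only 9 were tested, and 8 were above background on no array, among them Gp1ba (part of the receptor for von Willebrand factor), Ppbp and Selp. Of the tested genes 2 were called higher (22.2%) and 3 lower (33.3%), with a median of 0.16, beside 12.6% higher and 11% lower over all genes. The count lower was 1 without Ebf1 replicate 1 or any 1 of the 3 control arrays and with slide as a fixed block, and 0 with no filter. The count higher was 4 without Ebf1 replicate 1 or with no filter, and 1 with signal required on all 6 arrays. Gp9, a subunit of the same receptor complex, rose from 1.79, 1.94 and 2.09 to 3.61, 3.28 and 3.38 (change 1.48 ± 0.16 SE, adjusted p = 0.000502, limma). Plek, a platelet kinase substrate also found in leukocytes, fell by 1.29 (adjusted p = 0.0119, not called with slide as a fixed block, change -1.27 and adjusted p = 0.132, or with no filter). Vwf was at least 1.85-fold higher (adjusted p = 0.00348) and not called with normexp (0.26).

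The transcription factors that run the erythroid and megakaryocyte programs split. Of 14 tested, 5 were called higher (35.7%) and 5 lower (35.7%), with a median of -0.13, beside 12.6% higher and 11% lower over all genes. The count higher was 3 with normexp and 3 with signal required on all 6 arrays. Zfpm1, the GATA partner known as FOG1, rose from 1.75, 2.11 and 2.08 to 4.74, 4.53 and 4.12 (change 2.48 ± 0.20 SE, adjusted p = 0.000126, limma). Nfe2, which binds the beta globin locus control region, rose from 1.48, 1.52 and 1.71 to 3.28, 3.18 and 3.13 (change 1.63 ± 0.14 SE, adjusted p = 0.000173). Gfi1b, a repressor needed in both lineages, fell from 3.63, 3.75 and 3.73 to 1.94, 1.91 and 2.17 (change -1.70 ± 0.14 SE, adjusted p = 0.000147). All 3 were called in 17 of 17 alternatives. Klf1, an activator of the adult beta globin gene, lies outside the naming rule and was chosen after its value was seen. It was at least 1.88-fold higher with Ebf1 (adjusted p = 0.00333, limma), in the samples in which Hbb-b1 was lower. Its levels were dim, at -5.71, -5.07 and -5.20 in control and -3.99, -3.97 and -3.40 in Ebf1 samples. Klf1 was above background on no control array and was not followed singly through the alternatives. A link between Klf1 and Hbb-b1 was not tested.

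**Figure D4:**
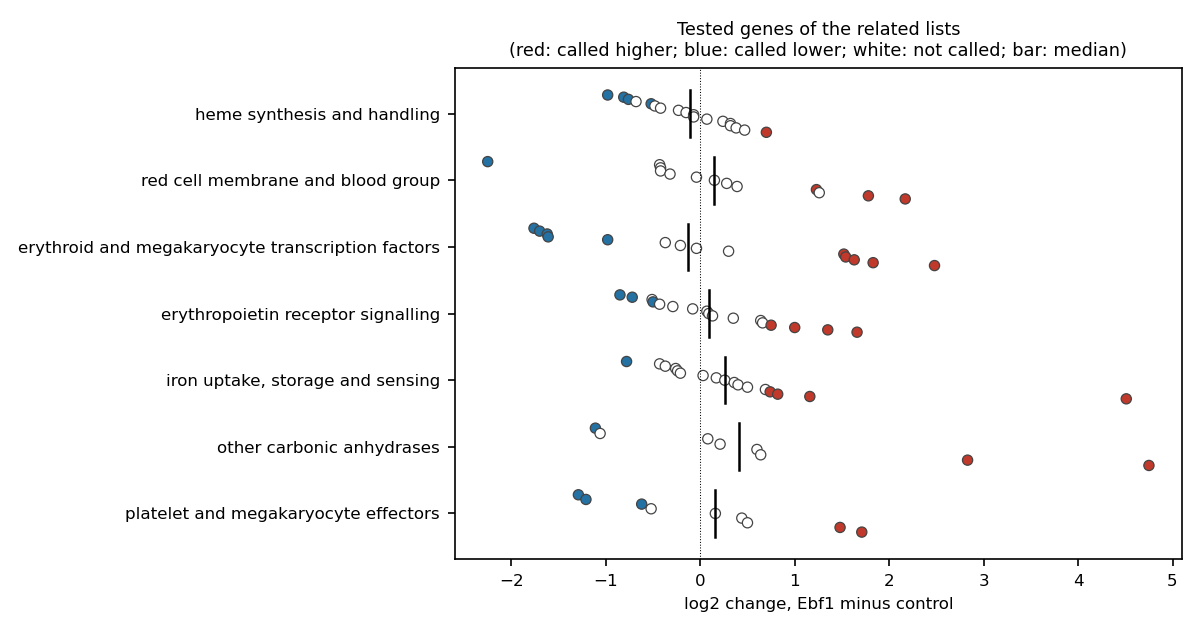
Log2 change (Ebf1 minus control) of every tested gene of 7 related lists, with red for genes called higher, blue for genes called lower, white for genes not called and a bar at the list's median. Points above background in 1 group only, such as Car3 and Tfr2 at the far right, are fitted values and not sizes; the list medians lie between -0.13 and 0.41.

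Over all 8 related lists, which leave out the 9 genes, 143 of 147 genes were on the array and 96 were tested. Of these, 21 were called higher (21.9%) and 18 lower (18.8%), with a median of 0.08, beside 12.6% higher and 11% lower over all genes. The list of other globins had 0 tested genes and is not drawn in the plot of the lists.

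The probes with the most similar profile were found by the Euclidean distance between the 6 array values after each probe's mean was removed, among 17732 tested probes of other named genes. With 3 arrays in each of 2 groups, this mostly ranks probes by the size of the group difference. For Hbb-b1, taken by its probe at base 496, the nearest were Esm1 (distance 0.39, change -1.67), Ahr (0.42, change -1.96) and the transcription factor gene Tal1 (0.44, change -1.76). For Alas2 they were Tfcp2l1 (0.44), Ccbe1 (0.72) and Kcna5 (0.75). For Tfrc they were Suv39h2 (0.11), Mtrr (0.11) and Dennd2d (0.12), with changes of -0.58, -0.53 and -0.55.

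Promoter windows from RefSeq (GRCm38.p6), of 250 bases up to the transcript start, were held for 7 of the 9 genes (8 windows), and not for Car1 and Car2. Those of Alas2 and Hbb-b1 are shown because these genes went opposite ways. Capitals mark 2 motifs on either strand, AGATAA, bound by GATA factors, and CACCC, bound by Kruppel-like factors. The Alas2 window (chrX:150547167-150547416, plus strand) has 1 of the first and 3 of the second. The window of Hbb-b1, listed as Hbb-bt (chr7:103813924-103814173, minus strand), has 3 of the second only.
Alas2 promoter: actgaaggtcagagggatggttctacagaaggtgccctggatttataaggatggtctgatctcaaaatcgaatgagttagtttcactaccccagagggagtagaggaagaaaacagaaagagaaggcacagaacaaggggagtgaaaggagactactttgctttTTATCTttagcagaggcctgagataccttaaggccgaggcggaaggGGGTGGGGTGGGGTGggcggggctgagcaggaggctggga
Hbb-bt promoter: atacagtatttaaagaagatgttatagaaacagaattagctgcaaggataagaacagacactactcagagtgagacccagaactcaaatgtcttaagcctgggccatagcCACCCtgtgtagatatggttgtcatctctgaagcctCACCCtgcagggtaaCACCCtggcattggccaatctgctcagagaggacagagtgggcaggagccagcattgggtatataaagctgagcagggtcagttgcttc

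AGATAA lay in the windows of Alas2, Epor and Rhd, and in 9.99% of all 32851 windows. TGATAA, the other GATA form searched, was found in Hba-a1 and in 7.94% of windows. CACCC lay in windows of 6 of the genes (Alas2, Epor, Hba-a1, Hbb-b1, Rhd and Tfrc) and in 52% of all windows. The Ebf motif searched (TCCC and GGGA with any 2 bases between) was in 0 of the 8 windows and in 0.779% of all. A match describes letters in the window and not a bound site.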

How the data were processed

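All 6 arrays (1-colour, 3 per group) were used, with groups and replicate numbers taken from the sample titles. The deposited values are spot intensities on a linear scale, extracted with Agilent Feature Extraction 10.5.1.1 with background subtracted within each array, per the file headers. The series table holds the same deposited intensities (equal within 0.1% at all 45018 features). Medians by column were 13.1, 7.62 and 9.07 in control and 12.7, 12.3 and 19.7 in Ebf1 samples, so the table is linear, not centred and not a ratio.

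Processed signals were turned to log2, the array's 75th percentile over non-control features subtracted, 65 to 116 outlier spots per array left out, and spots of a probe averaged. No spot was saturated. Groups were compared with limma 3.58.1 (lmFit and eBayes, two-sided), run in R 4.3.3 (data.table package, 1.17.8), and Benjamini-Hochberg adjustment over 20455 probes. The script was tested on simulated data. The number of arrays limits the precision. Where a probe was above background on no array of a group, a bound ("at least N-fold") replaces the fitted size. Such a probe entered the test only through the group in which it was high, so its p and its calls are not separate support. A list gene is its tested probe with the highest mean. Accessions of 25097 probes matched RefSeq (GRCm38.p6), and 3505 symbols were updated. Probe sequences and mm9 positions come from the array files.

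The members and lists were chosen with earlier results of these data known. By a fixed rule, the text names all probes of the 9 genes, up to 3 called genes with the smallest p from each list, and the 3 probes nearest in profile to each called member. Outside this rule it names the remaining called genes of the red cell membrane and transcription factor lists. Alas1, some genes too dim to test and marker genes are named as well. These were named with their values known. Alternatives were other background corrections, scalings, filters, blocks, variance models, inputs, spot rules and left-out arrays. Some could hardly differ from the main fit, which called 4435 probes. The series table as input repeats that fit (4435 called). Keeping outlier spots (4433) and slide as a random block (4408) nearly do, so counts of alternatives include these.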

Additional observations from a re-analysis of the deposited data

How the results depend on the processing

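The 3 called Hbb-b1 probes kept their direction and call in 17 of 17 alternatives, and Alas2 in the 16 in which it was tested. These counts include the series table as input, which holds the same intensities and had to give the same result. Requiring signal on all 6 arrays left 0 member probes called higher, because Alas2 was not tested, and 13 list genes higher in place of 21. Median scaling moved the median change of all probes from -0.06 to -0.37 and the share of called probes that were higher from 53% to 32.2%, and turned the Epor change to -0.03. In that setting the SE was 0.34 for Alas2, Epor, Cish and Fth1 alike, so calls there do not reflect each probe's own spread. The column medians (7.62 to 19.7) also lay near the lowest signal above background, 8.39 to 13.2 by array. Calls kept or lost with median scaling are therefore a weak check. All tested probes called numbered 4435, 1996 with no filter on dim probes, 2168 with slide as a fixed block (where 1 slide holds both groups, with 1 array of each) and 2610 to 3702 with 1 array left out. List genes called lower numbered 18, 8 with no filter, 8 with slide as a fixed block and 10 to 15 with 1 array left out (10 without control replicate 2). Member probes called lower ranged from 3 to 5. With the replicate number as a block, 3096 probes were called and Tfrc was not (adjusted p = 0.0902). Arrays of the same number had correlations of -0.17, -0.25 and 0.10 after group means were removed, beside -0.13 to 0.29 for arrays of different numbers. With 3 arrays per group, these values cannot settle whether a number marks a shared culture or day, and the labels do not say. Over 29 single genes and probes and their alternatives (486 values), 436 kept direction and call status, 42 lost the call, 7 gained it and 1 turned direction. Signal over background limits Hba-a1, Car1, Car2 and Pf4, which gave no usable level. The causes of the other changes were not tested.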
